A study of Rattus norvegicus with 23 samples.

Results

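The genes described here are 10 heat shock chaperones and co-chaperones measured in rat femur, chosen by symbol: the HSP70 genes Hspa1a, Hspa1b and Hspa8, the HSP110 gene Hsph1, the small heat shock protein gene Hspb1, the HSP90 genes Hsp90aa1 and Hsp90ab1, the J-domain gene Dnajb1, and the BAG genes Bag3 and Bag6. All 10 were found among the 30562 genes of the deposited table, and all 10 were among the 15271 genes with enough counts to be tested. Femora of female Wistar rats gave 23 bulk libraries of polyadenylated RNA in 5 groups. Healthy controls (n = 4) had standard feed and saline, by their titles. The other groups carried MetOP, a metabolic osteoporosis model in which rats eat a high-fat diet and receive L-NAME, a blocker of nitric oxide synthase. They received saline (n = 5), semaglutide (n = 5), PYY3-36 with saline (n = 4, called PYY here) or semaglutide together with PYY3-36 (n = 5, the combination). Semaglutide is an agonist of the GLP-1 receptor. PYY3-36, a peptide released by the gut, signals largely by way of the receptor Npy2r. The labels leave unexplained the abbreviations lfd in the MetOP titles and oLN in the control titles. In the treatment labels of the 4 PYY libraries the peptide name ends in 36, 37, 38 and 39, and they were taken as 1 group from their shared title. The labels give no age. They do not say whether each library of a group is a different rat, and the p-values then reflect only how far these samples vary, which may be technical.

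As background, cells exposed to heat or other protein damage activate heat shock transcription factors such as Hsf1, which bind heat shock elements near the start sites of chaperone genes. HSP70 proteins bind and release unfolded stretches of other proteins in a cycle driven by ATP. J-domain proteins bring them clients and trigger ATP hydrolysis, while HSP110 and BAG proteins help release the nucleotide. HSP90 proteins finish the folding of kinases and steroid receptors, and small heat shock proteins hold unfolded proteins without using ATP. In muscle, Bag3 works with Hspb8 and Hspa8 to clear damaged proteins of the contractile apparatus. Bag6 works in the quality control of newly made membrane proteins.

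No member passed an adjusted p of 0.05 in edgeR's quasi-likelihood test (Benjamini-Hochberg over all genes tested) in any of the 8 comparisons. The member with the clearest separation was Bag6, whose level in the semaglutide group lay above that of every MetOP saline and every PYY library. With semaglutide 9 of the 10 members were higher on average than with saline, while 7 of 10 were lower in MetOP saline than in healthy controls. Of all genes tested, 47.6% were higher with semaglutide than with saline, and 52.5% were higher in MetOP saline than in controls. Both contrasts use the same MetOP saline libraries, so the 2 counts of members are not independent. Several members also varied together across libraries, so their directions are not independent of each other. Within groups, only Hspa8 and Bag3 passed a test of correlation with the muscle RNA of the libraries (by Pearson's r, not by rank), and both relations rested on 2 libraries.

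Libraries held between 19.25 and 40.65 M counts (median 25.9 M, with M as in CPM, counts per M), and 46.1 to 83.9% of them came from the mitochondrial genome. The 10 members took 0.307 to 0.719% of the counts of all other genes. A count of 0 allowed up to 3 counts, or 0.0738 to 0.156 CPM depending on the library, and such limits cover counting error only. These limits were taken from total counts without TMM scaling, unlike the CPM given below. Muscle level here is the mean log2 CPM of 24 skeletal muscle genes of 26 listed, all of them detected in each group. It ran from 9.76 to 11.3 in healthy controls, 9.17 to 10.6 in MetOP saline, 9.04 to 11.3 with semaglutide, 6.56 to 9.51 with PYY and 6.50 to 11.5 in the combination. The low ends of the last 2 ranges are the libraries A216 (PYY) and A320 (combination), which stand apart from the other 21, all at 9.04 or above. The bone markers were present too: all 10 osteoblast genes were detected in each group, with a list level of 2.10 to 7.11 across libraries, and a femur library is a mix in which fewer cells of a type and less RNA per cell cannot be told apart.

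Between genes, levels were compared as the authors' deposited FPKM, which divide by transcript length. Hsp90ab1, the constitutive cytosolic HSP90, averaged 207.5 FPKM ± 59.1 (SD, n = 23 libraries), and Hspa8, the constitutive HSP70, averaged 185 FPKM ± 41.1. Hspb1 followed at 82.1 FPKM ± 47.0, Hsp90aa1, the inducible HSP90, at 41.6 FPKM ± 15.8, and Bag3 at 20.8 FPKM ± 10.4. The other members were at 10 FPKM or lower on average: Hsph1 8.85, Bag6 6.98, Dnajb1 5.34, Hspa1b 4.76 and Hspa1a 0.105 FPKM. The 2 constitutive genes, Hspa8 and Hsp90ab1, thus had the highest levels, and Hspa8 also varied least, with a coefficient of variation of CPM over the 23 libraries of 22.5%. Bag6 (28.2%), Hsp90ab1 (28.6%), Hsph1 (32.6%) and Hsp90aa1 (37.0%) came next. The spread was wider for Dnajb1 (47.2%), Bag3 (49.1%), Hspb1 (56.8%) and the stress-inducible Hspa1b (74.4%), whose highest library held 35.2 times the CPM of its lowest.

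**Figure D1:**
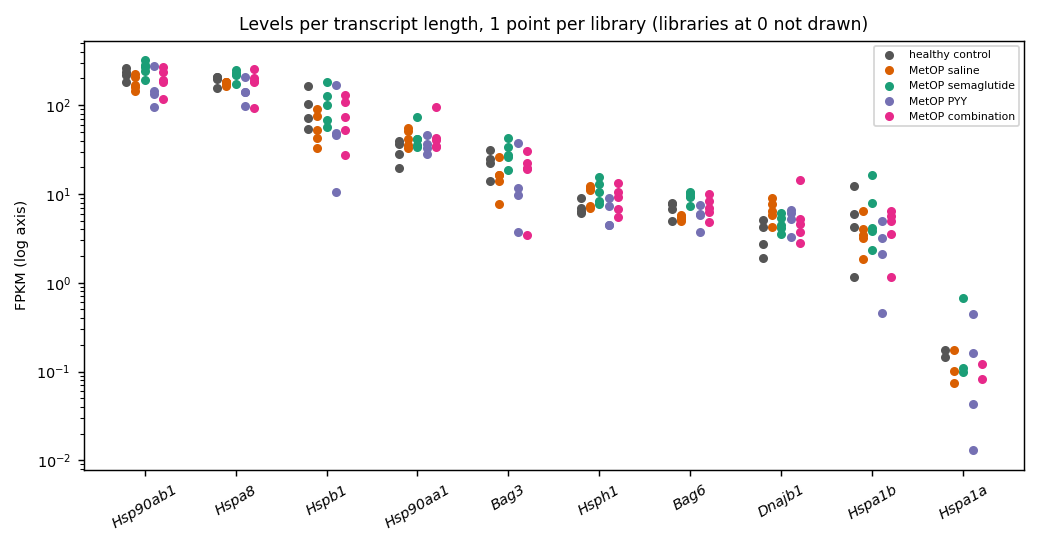
Deposited FPKM of the 10 members in each of the 23 libraries on a log axis, with 1 point per library coloured by group. Hsp90ab1 and Hspa8 lie at the top, and Hspa1a lies at the bottom, where the 9 libraries at 0 are not drawn.

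Hspa1a and Hspa1b encode near-identical HSP70 proteins, and their gene models cannot be counted apart with confidence. On build mRatBN7.2, Hspa1a (chr20:3856006-3873227, minus strand) and Hspa1b (chr20:3856006-3873240, plus strand) share 17222 bases, which is 100% of the Hspa1a model and 99.9% of that of Hspa1b. Whether the counting used the strand is not stated. Over all libraries Hspa1b received 12511 counts and Hspa1a 208, with none in 9 libraries and at most 60 (A220, PYY). No fold change is given for Hspa1a alone, although it is included in the counts and medians over the 10 members and in the correlations. The third HSP70 gene, Hspa8, lies at chr8:41183264-41187259. Hsph1 lies at chr12:5390922-5410224, Hspb1 at chr12:20794028-20795743, Hsp90aa1 at chr6:129702383-129707268 and Hsp90ab1 at chr9:15433691-15438488. Dnajb1 lies at chr19:24522717-24526458 and Bag3 at chr1:183102871-183126858. Bag6 (chr20:3675938-3688657) lies on the chromosome of the HSP70 pair, 167349 bases before the Hspa1b model.

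The stretches upstream of the members' start sites are printed because several members varied together across libraries. They also show which members hold exact matches to the letters of heat shock elements. RefSeq tables (build GRCr8, not the build of the counts) held promoter windows of 250 bases before to 50 bases after a start site for 8 of the 10 members. The entries of Hspa1b and Hsp90aa1 were not matched. Each line below gives the 250 bases before the start site, 5′ to 3′ on the strand of the gene, and capitals mark matches to GAANNTTC or TTCNNGAA, either of which reads the same on both strands. A match of 3 units, GAANNTTCNNGAA or TTCNNGAANNTTC, is 2 such matches that overlap.
Hspa8 (chr8:50080264-50080513, plus strand): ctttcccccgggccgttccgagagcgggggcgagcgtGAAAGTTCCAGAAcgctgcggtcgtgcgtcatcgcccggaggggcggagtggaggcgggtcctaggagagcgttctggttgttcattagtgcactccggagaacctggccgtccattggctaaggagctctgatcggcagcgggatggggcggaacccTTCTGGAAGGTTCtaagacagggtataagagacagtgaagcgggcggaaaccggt
Hsph1 (chr12:10427118-10427367, plus strand): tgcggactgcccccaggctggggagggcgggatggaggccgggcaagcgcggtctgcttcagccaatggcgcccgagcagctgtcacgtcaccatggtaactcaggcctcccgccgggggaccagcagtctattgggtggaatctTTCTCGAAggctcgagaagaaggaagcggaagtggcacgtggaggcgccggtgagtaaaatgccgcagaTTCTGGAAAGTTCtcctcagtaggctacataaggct
Hspb1 (chr12:26432302-26432551, minus strand): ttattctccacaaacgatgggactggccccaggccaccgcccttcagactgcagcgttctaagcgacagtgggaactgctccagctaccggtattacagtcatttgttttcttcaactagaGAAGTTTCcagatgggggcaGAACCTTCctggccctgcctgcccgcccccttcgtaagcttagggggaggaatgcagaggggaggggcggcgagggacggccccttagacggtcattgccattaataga
Dnajb1 (chr19:41431142-41431391, minus strand): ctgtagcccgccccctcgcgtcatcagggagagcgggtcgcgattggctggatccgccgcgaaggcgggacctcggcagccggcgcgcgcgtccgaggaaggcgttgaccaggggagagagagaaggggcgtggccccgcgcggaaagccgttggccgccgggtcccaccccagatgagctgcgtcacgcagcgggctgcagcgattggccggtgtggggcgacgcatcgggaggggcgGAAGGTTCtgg
Bag3 (chr1:192533210-192533459, plus strand): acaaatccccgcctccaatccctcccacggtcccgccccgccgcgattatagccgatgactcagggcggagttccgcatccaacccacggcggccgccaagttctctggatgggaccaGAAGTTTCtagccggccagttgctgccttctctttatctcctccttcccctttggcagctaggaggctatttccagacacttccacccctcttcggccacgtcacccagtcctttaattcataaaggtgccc
Bag6 (chr20:3693330-3693579, minus strand): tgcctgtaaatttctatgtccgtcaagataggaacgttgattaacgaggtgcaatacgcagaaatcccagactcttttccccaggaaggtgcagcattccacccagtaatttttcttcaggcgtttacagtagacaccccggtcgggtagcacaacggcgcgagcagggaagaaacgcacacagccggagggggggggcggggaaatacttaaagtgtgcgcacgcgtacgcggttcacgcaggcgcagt

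Of the 8 members with a window, 2 held a match of 3 units. Hspa8 held GAAAGTTCCAGAA at -213 to -201 from the start site and TTCTGGAAGGTTC at -55 to -43. Hsph1 held TTCTGGAAAGTTC at -36 to -24. Over all 33469 RefSeq promoter windows of 300 bases, 0.798% held a match of 3 units on either strand. The 2-unit form, looked for after the 3-unit form had been seen, occurred in 5 members (Hspa8, Hsph1, Hspb1, Dnajb1 and Bag3) and in 15.85% of all windows. In Dnajb1 a further match, GAAGCTTC, lies after the start site at 18 to 25, outside the printed stretch. These letters are not in the windows of Hspa1a, Hsp90ab1 and Bag6, of which Bag6 is printed because it was the member that separated the groups most clearly. Only exact matches within the windows were looked for. An element with a mismatch, or one farther from the start site, would be missed, so a window without a match does not show that the gene lacks one. RefSeq places the Hspa1a window on the plus strand, whereas the deposited table puts Hspa1a on the minus strand.

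MetOP saline was compared with healthy controls to show the state of the model without either drug. Dnajb1, the J-domain partner of inducible HSP70, had the lowest unadjusted p. It measured 9.83, 6.09, 11.7 and 4.32 CPM in the healthy controls and 13.3, 14.4, 19.6, 17.7 and 9.50 CPM in MetOP saline. All but 1 of the MetOP libraries (A265) exceeded every control, so the groups overlapped. The means were 7.98 CPM ± 3.37 (SD, n = 4) and 14.9 CPM ± 3.93 (n = 5), a log2 fold change of 0.90 ± 0.38 (SE), with an unadjusted p of 0.0282 and an adjusted p of 0.71 in edgeR.

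A further pair of chaperones of the folding cycle averaged higher in MetOP saline without passing the test. Hsph1 was at 51.3 CPM ± 13.0 against 38.0 CPM ± 7.59 in controls (log2 fold change 0.43 ± 0.28), and Hsp90aa1 was at 118 CPM ± 25.9 against 86.2 CPM ± 25.7 (0.45 ± 0.32, and 0.28 without the control A389). The remaining 7 members averaged lower. Hspb1 was at 57.2 CPM ± 23.3 against 97.7 CPM ± 49.9 (-0.77 ± 0.56, and -0.39 without A390), Bag3 at 41.2 CPM ± 16.9 against 60.3 CPM ± 18.2 (-0.55 ± 0.52) and Bag6 at 23.6 CPM ± 1.61 against 30.3 CPM ± 5.69 (-0.36 ± 0.22). Hsp90ab1 was at 472 CPM ± 91.3 against 599 CPM ± 92.1 (-0.34 ± 0.34) and Hspa8 at 457 CPM ± 22.2 against 505 CPM ± 66.9 (-0.14 ± 0.31). Hspa1b, at 16.1 CPM ± 7.53 against 25.6 CPM ± 20.7 (-0.67 ± 0.63), rested on the control A390 with 54.0 CPM, and without it the log2 fold change was 0.0025.

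In that comparison edgeR called 0 of the 10 members and 0% of all genes tested, and DESeq2 and limma voom called no member either. At an unadjusted p under 0.05 the members held 1 gene (Dnajb1), and 6.55% of all genes tested passed. The members' median log2 fold change was -0.28, against 0.04 over all genes tested. It was -0.04 without A390, and adding the muscle level as a covariate gave -0.12.

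The 2 cytosolic HSP90 genes differed in direction. As a ratio of deposited FPKM, Hsp90ab1 over Hsp90aa1 was 7.87 ± 2.93 in healthy controls (n = 4, 6.06 to 12.2) and 4.34 ± 1.03 in MetOP saline (n = 5, 3.07 to 5.90). The 2 groups did not overlap, with nearest values of 6.06 and 5.90. The highest control ratio was that of A389, whose Hsp90aa1 level of 19.6 FPKM was the lowest of all 23 libraries. It was 6.06 ± 1.21 with semaglutide, 4.41 ± 1.36 with PYY and 4.80 ± 2.44 in the combination, and these 3 groups overlapped each other. The ratio was computed after the levels had been seen and was not tested, and the share of other gene pairs without overlap was not computed.

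**Figure D2:**
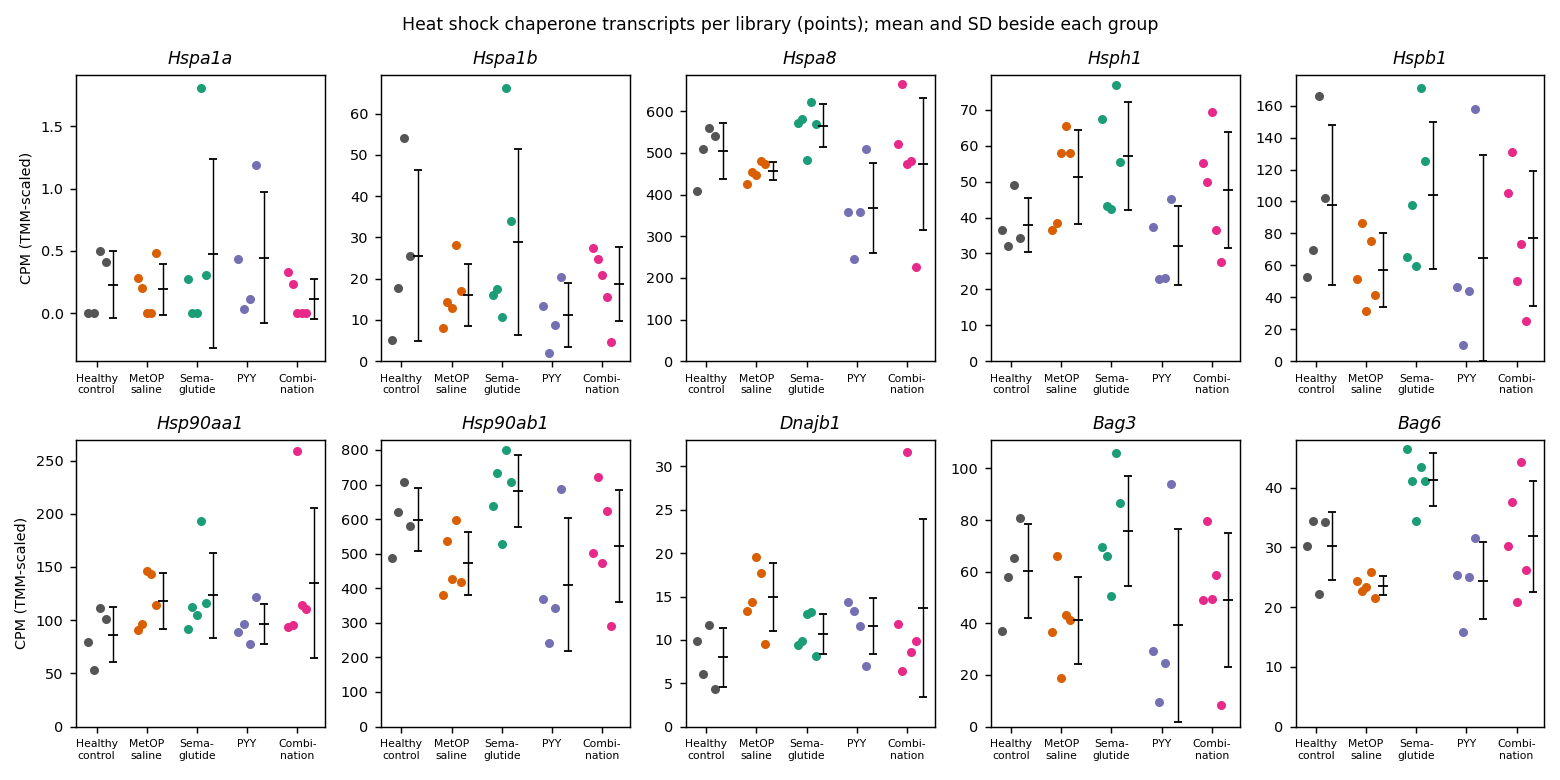
Scaled CPM of each member in every library by group, with 1 panel per gene and its own axis, points for libraries, and lines and bars for the group mean and SD. The semaglutide points of Bag6 (34.5 to 46.5 CPM) sit above all points of MetOP saline (21.6 to 25.8 CPM) and PYY (15.8 to 31.5 CPM).

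Semaglutide was set against MetOP saline to show the levels under the GLP-1 receptor agonist within the model. Bag6 measured 46.5, 41.1, 34.5, 43.4 and 41.1 CPM in the 5 semaglutide libraries. In the 5 MetOP saline libraries it measured 24.4, 22.7, 23.5, 25.8 and 21.6 CPM. Every semaglutide library was thus above every saline library, and the saline values lay close together. Means were 41.3 CPM ± 4.43 and 23.6 CPM ± 1.61, a log2 fold change of 0.81 ± 0.21 with a 95% interval of 0.38 to 1.24, an unadjusted p of 0.000659 and an adjusted p of 0.371 in edgeR. DESeq2 called it (adjusted p = 0.0288), and limma voom did not (0.454). Muscle levels differed between these groups: every semaglutide library except A242 (9.04) lay at 11.0 to 11.3, above the highest MetOP saline library (A265, 10.6). With the muscle level as a covariate the log2 fold change of Bag6 was 0.73 (adjusted p = 0.533), and when single libraries were left out it stayed between 0.78 and 0.87.

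Markers of osteoblasts, osteoclasts, chondrocytes, erythroid cells, macrophages, neutrophils and B cells averaged lower in the same semaglutide libraries, with overlapping ranges. Adipocyte, endothelial and muscle markers did not. As mean log2 CPM of the list in a library, the 10 osteoblast genes ran from 2.55 to 4.50 with semaglutide and from 3.49 to 6.89 with saline, and the 9 osteoclast genes from -0.73 to 2.29 against 0.29 to 3.95. For the 9 tested chondrocyte genes the ranges were -1.44 to 1.59 and 0.64 to 7.88, for the 10 erythroid genes 4.11 to 7.05 and 5.77 to 8.13, and for the 8 tested macrophage genes 0.12 to 2.30 and 2.26 to 3.10. For the 8 tested neutrophil genes they were 0.92 to 6.31 and 4.10 to 5.40, and for the 6 tested B cell genes -0.74 to 3.73 and 0.10 to 2.97. Single semaglutide libraries made some ranges overlap. Apart from A242 for osteoblasts and A241 for osteoclasts, macrophages and neutrophils, every semaglutide library lay below every saline library in those lists. Of the listed genes, 1 chondrocyte, 1 macrophage and 1 neutrophil gene had no count in any semaglutide library. The part of cells other than muscle in the levels of Bag6 and the other members was not tested.

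The constitutive Hspa8 was the other member whose groups did not overlap. It measured 571, 582, 482.7, 622 and 570 CPM with semaglutide. With saline it measured 425, 455, 448, 481.9 and 473 CPM. The gap between the nearest libraries (A241 and A232) was under 1 CPM, and the log2 fold change of 0.31 ± 0.30 did not pass (adjusted p = 0.701 in edgeR). Of all genes tested, 2.71% were higher with no overlap in this comparison.

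Further members averaged higher with semaglutide and overlapped with saline. Bag3 was at 75.8 CPM ± 21.2 against 41.2 CPM ± 16.9 (log2 fold change 0.88 ± 0.49), Hspb1 at 104 CPM ± 45.9 against 57.2 CPM ± 23.3 (0.86 ± 0.53) and Hsp90ab1 at 681 CPM ± 104 against 472 CPM ± 91.3 (0.53 ± 0.33). The inducible Hspa1b was at 28.9 CPM ± 22.6 against 16.1 CPM ± 7.53 (0.84 ± 0.60, and 0.28 without A242). Hsph1 was at 57.2 CPM ± 15.1 against 51.3 CPM ± 13.0 (0.16 ± 0.27, and 0.03 without A242). Dnajb1 was the only member that averaged lower, at 10.7 CPM ± 2.28 against 14.9 CPM ± 3.93 (-0.48 ± 0.36).

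Here edgeR called 0 of 10 members and 0% of all genes tested. At an unadjusted p under 0.05 it gave 1 member (Bag6) and 11.4% of all genes tested, while 4.18% of all genes tested were higher at that p. The median log2 fold change of the members was 0.67, against -0.04 over all genes tested, and it was 0.28 without library A242. That library held the highest Hspa1b (66.2 CPM), Hspb1 (171 CPM), Bag3 (106 CPM) and Hsp90ab1 (800 CPM) levels of all 23, and its muscle level of 9.04 was the lowest of the semaglutide group.

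PYY was compared with the same saline libraries, so the 2 drug contrasts share their controls. Hsph1, the HSP110 that exchanges nucleotide on HSP70, was the member with the lowest unadjusted p. It measured 37.4, 22.8, 23.2 and 45.1 CPM with PYY and 36.6, 38.4, 57.9, 65.6 and 57.9 CPM with saline. The groups overlapped, with A216 and A219 below every saline library. The log2 fold change was -0.67 ± 0.29 (unadjusted p = 0.0268, adjusted p = 0.967 in edgeR), with an adjusted p of 0.416 to 1 when single libraries were left out.

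Hspa1b (11.1 CPM ± 7.80 with PYY, log2 fold change -0.53 ± 0.64), Dnajb1 (11.6 CPM ± 3.26, -0.37 ± 0.38), Hspa8 (368 CPM ± 109, -0.31 ± 0.31) and Hsp90aa1 (96.1 CPM ± 18.9, -0.30 ± 0.32) averaged lower as well. Single libraries set the size of these values: without A220 they were -0.997 for Hspa1b, -0.51 for Hspa8 and -0.19 for Dnajb1, without A216 -0.18 for Hspa1b and -0.16 for Hspa8, and without A219 -0.13 for Hsp90aa1. Bag6 was nearly level, at 24.4 CPM ± 6.47 (0.05 ± 0.22), and without A220 its log2 fold change was -0.10. Between the PYY libraries Bag3 and Hspb1 varied widely: Bag3 measured 29.2, 9.38, 24.7 and 93.9 CPM and Hspb1 46.4, 9.93, 44.2 and 158 CPM. In both genes A220 was high and A216 low. The muscle level of A220 was 9.35 and that of A216 was 6.56.

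In the PYY comparison edgeR called 0 of 10 members and 0% of all genes tested. Unadjusted, 1 member (Hsph1) and 4.85% of all genes passed a p under 0.05, and neither DESeq2 nor limma voom called a member. The members' median log2 fold change was -0.25, against -0.01 over all genes tested, and it ranged from -0.54 (without A220) to -0.09 (without A216). With the muscle level as a covariate it was -0.02.

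The combination held 2 libraries far from the rest, A253 with high Hsp90aa1 and Dnajb1 and A320 with little muscle RNA. The inducible Hspa1b was not high in A253, at 20.9 CPM against 4.78 to 27.4 CPM in the other 4. Bag6 measured 30.3, 37.5, 20.9, 44.4 and 26.3 CPM, with A253 below the lowest saline library and the other 4 above the highest. The mean was 31.9 CPM ± 9.25, a log2 fold change against MetOP saline of 0.43 ± 0.21 (unadjusted p = 0.0458, adjusted p = 1 in edgeR). Hspb1 was at 77.0 CPM ± 42.2 (0.43 ± 0.53) and Bag3 at 49.1 CPM ± 25.8 (0.25 ± 0.49). These depended on single libraries: Hspb1 was at 0.17 without A251 and 0.65 without A320, Bag3 at 0.02 and 0.52, and Bag6 at 0.28 without A318.

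Hsp90aa1 in the combination measured 93.8, 95.6, 259, 115 and 111 CPM, and Dnajb1 measured 11.8, 6.38, 31.7, 8.64 and 9.90 CPM. In both genes A253 had the highest value of all 23 libraries. Neither the muscle level of A253 (9.71) nor its Bag3 (49.4 CPM) was outside the range of the other libraries, whereas 82.6% of its counts were mitochondrial, near the top of the range. Against MetOP saline edgeR called 0 of 10 members and 0% of all genes tested. Unadjusted, 1 member (Bag6) and 3.06% of all genes had a p under 0.05, and no member was called by DESeq2 or limma voom.

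Semaglutide and PYY were compared directly, and this contrast gave the most members under an unadjusted p of 0.05. Bag6 with semaglutide (34.5 to 46.5 CPM) did not overlap with PYY (25.3, 15.8, 25.0 and 31.5 CPM). The log2 fold change was 0.76 ± 0.22 (adjusted p = 0.121 in edgeR), DESeq2 called it (adjusted p = 0.0349) and limma voom did not (0.186). Hsph1 measured 67.5, 43.3, 42.5, 77.0 and 55.4 CPM with semaglutide against 37.4, 22.8, 23.2 and 45.1 CPM with PYY. Only A220 of the PYY group reached into the semaglutide range, and the log2 fold change was 0.83 ± 0.29 (unadjusted p = 0.00793, adjusted p = 0.179 in edgeR).

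Hsp90ab1 (681 CPM ± 104 against 411 CPM ± 193, log2 fold change 0.73 ± 0.35) and Hspa1b (28.9 CPM ± 22.6 against 11.1 CPM ± 7.80, 1.37 ± 0.66) also had unadjusted p values under 0.05, at 0.0472 and 0.0484. Bag3 (0.95 ± 0.53), Hspb1 (0.68 ± 0.57), Hspa8 (0.62 ± 0.32) and Hsp90aa1 (0.36 ± 0.32) averaged higher with semaglutide without reaching it. Without A242, Hspa1b was at 0.81 and Hsp90aa1 at 0.14. The members called by edgeR were 0 of 10, beside 1 of all genes tested (0.00655%), the collagen receptor gene Ddr2, which was lower with semaglutide. Unadjusted, 4 of 10 members and 16.9% of all genes had a p under 0.05. Without overlap and higher with semaglutide was 1 member (Bag6), against 2.89% of all genes tested.

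The direct contrast depended on single libraries. Without A220, edgeR called 1021 genes and 3 members: Bag6 (log2 fold change 0.91, adjusted p = 0.0304), Bag3 (1.84, 0.0387) and Hsph1 (1.04, 0.0460). Hspb1 was at 1.63 and Hsp90ab1 at 1.10 in that fit, while without A216 Hspb1 was at 0.32 and Bag3 at 0.62. EdgeR called 164 genes without A251, 48 without A320 and 3 without A242, and no member in these fits. A251 and A320 are combination libraries outside this contrast, and enter it only by way of filter, scaling and shared spread. The muscle level was 9.04 to 11.3 with semaglutide and 6.56 to 9.51 with PYY, and A242 was the only semaglutide library within the PYY range. With the muscle level as a covariate the log2 fold change of Bag6 was 0.56 (adjusted p = 0.682), that of Hsph1 0.68 (0.776), that of Hspa8 0.24 (1) and that of Bag3 0.30 (1). Without both A216 and A320, an alternative chosen after the data had been seen, Bag6 was at 0.53 (0.344) and Hsph1 at 0.63 (0.384).

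**Figure D3:**
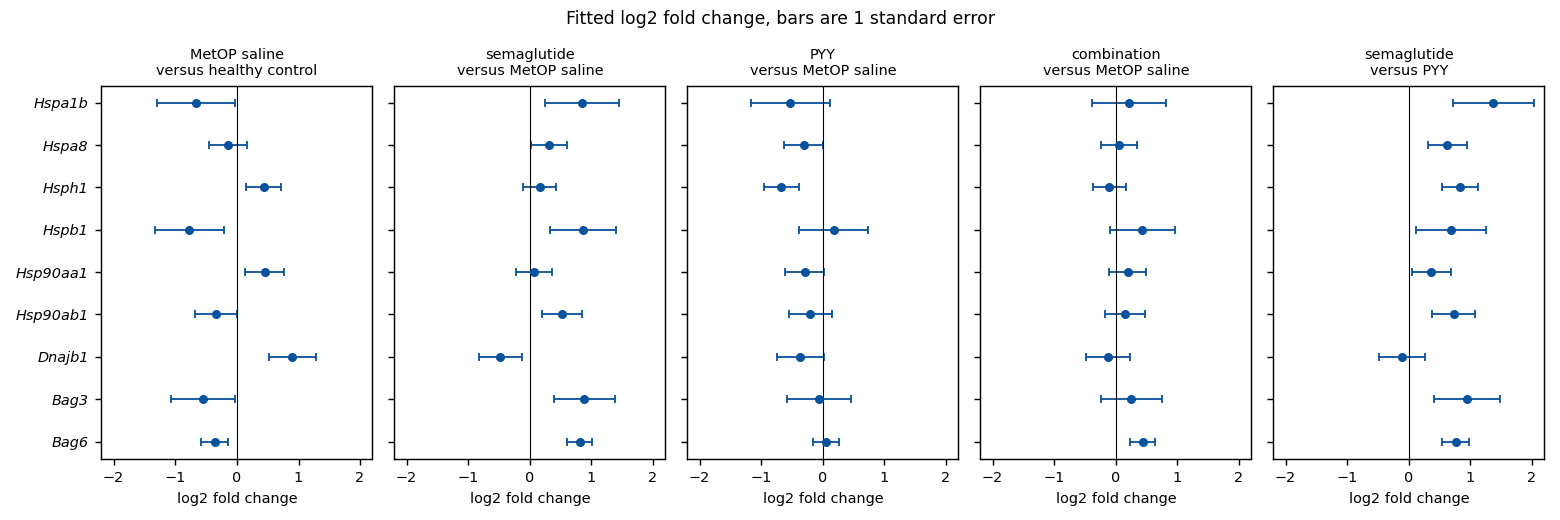
Log2 fold changes from the edgeR fit for the members other than Hspa1a, with 1 panel for each of 5 comparisons, points for the estimates, bars for 1 SE and a line at 0. Bag6 lies at 0.81 ± 0.21 for semaglutide against MetOP saline and at 0.76 ± 0.22 against PYY, with bars shorter than those of the other members in both panels.

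Adding PYY to semaglutide was read from the combination against semaglutide alone, where 8 of the 10 members averaged lower. Of all genes tested, 53.7% averaged higher. The log2 fold change was -0.63 ± 0.49 for Bag3, -0.63 ± 0.60 for Hspa1b, -0.43 ± 0.53 for Hspb1, -0.38 ± 0.32 for Hsp90ab1 and -0.38 ± 0.21 for Bag6, and edgeR called 0 of 10 members and 0% of all genes tested. Without A242 the value was -0.07 for Hspa1b and -0.18 for Hspb1, and without A320 it was -0.36 for Bag3 and -0.23 for Hsp90ab1. Unadjusted, no member and 5.65% of all genes had a p under 0.05. The members' median was -0.38, against 0.05 over all genes, and it was -0.18 without A242 and -0.22 without A320.

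Against PYY alone, 9 of 10 members averaged higher in the combination, beside 52.0% of all genes tested. Hsph1 had the lowest unadjusted p (0.0576), with 47.7 CPM ± 16.3 against 32.1 CPM ± 11.0 and a log2 fold change of 0.57 ± 0.28. Hsp90aa1 (0.49 ± 0.32), Bag6 (0.38 ± 0.22, and 0.22 without A216) and Hspa8 (0.36 ± 0.32, and 0.16 without A251) followed. The value of Hsp90aa1 rested in large part on A253, since the lowest log2 fold change with 1 library left out was 0.11. Again 0 of 10 members and 0% of all genes tested were called by edgeR, and unadjusted no member and 6.24% of all genes had a p under 0.05. The members' median was 0.36, against 0.02 over all genes tested, with 0.67 without A220 and 0.21 without A251.

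The interaction asks whether the combination departed from the sum of the 2 drugs' log2 effects. It was 0.72 ± 0.52 for Dnajb1, 0.42 ± 0.43 for Hsp90aa1, 0.41 ± 0.39 for Hsph1 and -0.42 ± 0.30 for Bag6. The first 2 rested on A253, without which they were 0.14 and 0.04. In this fit edgeR called 0 of 10 members and 0% of all genes tested, with no member and 4.58% of all genes at an unadjusted p under 0.05. In the last 3 comparisons DESeq2 and limma voom called no member either. The 95% interval for Bag6, -1.05 to 0.20, includes departures as large as the semaglutide effect itself.

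Across libraries Hspa8, Hspb1, Hsp90ab1, Bag3 and Hspa1b followed each other. With group means subtracted, Pearson's r over the 23 libraries was 0.91 between Hspa8 and Bag3, 0.90 between Hspb1 and Hsp90ab1, 0.90 between Hsp90ab1 and Bag3, 0.89 between Hspb1 and Bag3 and 0.85 between Hspa1b and Hspb1. Spearman's rho for these pairs was 0.80, 0.87, 0.81, 0.85 and 0.85. Of the 45 pairs of members, 18 had a permutation p (100000 draws within groups, two-sided) under 0.05 after Benjamini-Hochberg adjustment, 17 of them with a positive r. The pairs share library, depth and scaling. The share of pairs of all genes tested that would pass was not computed, so the count does not set the members apart from other genes. Without the 2 libraries farthest from the median (A320 and A216), r was 0.76 for Hspa8 with Bag3 and 0.84 for Hspb1 with Hsp90ab1.

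Other pairs behaved differently. Hsp90aa1 passed with Hsph1 (r 0.59, rho 0.54, permutation p = 0.0069, adjusted p = 0.0183, and r 0.61 without A216 and A219). Bag6 had no positive r that passed, the nearest being with Hsp90ab1 (r 0.60, rho 0.55, permutation p = 0.0354, adjusted p = 0.0759). Dnajb1 had a negative r with Bag6 (-0.66, rho -0.53, permutation p = 0.00791, adjusted p = 0.0198), which was -0.48 without A253 and A392. With Hsp90aa1 its r was 0.53 (rho 0.38, permutation p = 0.0569, adjusted p = 0.102) and 0.11 without A253 and A389, so that relation rested on those libraries. Hsp90aa1 with Hsp90ab1 had an r of 0.19 (rho 0.17, permutation p = 0.436, adjusted p = 0.516).

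Muscle RNA tracked part of the set. The r of member and muscle level, with group means subtracted, was 0.79 for Hspa8 (rho 0.49, permutation p = 0.00817, adjusted p = 0.0447) and 0.73 for Bag3 (rho 0.45, permutation p = 0.00894, adjusted p = 0.0447). For Hsp90ab1 it was 0.63 (rho 0.45, permutation p = 0.0192, adjusted p = 0.0545) and for Hspb1 0.59 (rho 0.47, permutation p = 0.0218, adjusted p = 0.0545). Bag6 had an r of 0.48 (rho 0.50, permutation p = 0.11, adjusted p = 0.183). By rho no member passed, with the smallest adjusted p at 0.0849 over the 10 members.

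These relations rested on the 2 libraries poor in muscle RNA. Without A320 and A216, r was 0.23 for Hspa8, 0.18 for Bag3, 0.14 for Hsp90ab1, 0.10 for Hspb1 and 0.21 for Bag6. In those 2 libraries Hspa8 (226.04 and 244.3 CPM) and Bag3 (8.51 and 9.38 CPM) had their lowest values of all 23. Hsp90aa1 and Dnajb1 showed the opposite sign: r was -0.30 and -0.28 over 23 libraries and -0.70 and -0.57 without A320 and A216. In the 21 libraries the permutation p was 0.00606 for Hsp90aa1 and 0.0102 for Dnajb1, both unadjusted.

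**Figure D4:**
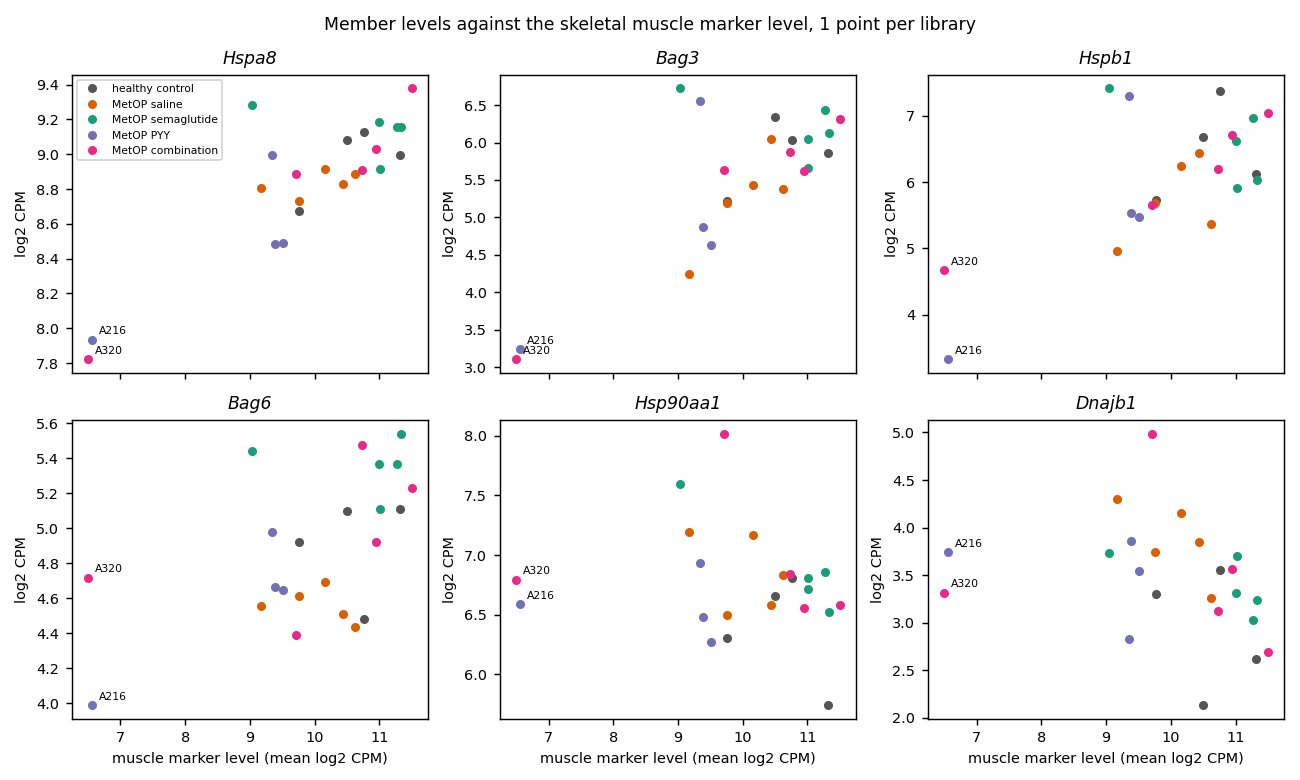
Log2 CPM of 6 members against the muscle level of each library (mean log2 CPM of 24 skeletal muscle genes), with 1 point per library coloured by group. A216 and A320 lie to the left at 6.56 and 6.50, apart from the other libraries at 9.04 to 11.5.

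The genes most like 4 of the members were found by Pearson's r of log2 CPM over the 23 libraries, which share library and depth. Unlike in the correlations above, group means were not subtracted, so differences between groups enter these values, as do A216 and A320. For Bag6 these were Srf (0.88), Gga1 (0.83), Stim1 (0.82), Akap1 (0.80) and Vars1 (0.80). For Hspa8 they were Eif3j, Mapt, Nexn, Myo18a and Myog (all 0.96). Hspb1 was most like Vgll2 (0.95), Lmod2 (0.95), Dnah5 (0.95), Cryab (0.94) and Ppm1b (0.94). For Hspa1b the list was Bag2, Colq, Gsta1, Tceal7 and Chrnd (0.87 to 0.88), with no clear order among them, and the gene model of Hspa1b is uncertain.

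The rest of the chaperone network was read from 8 lists, none of whose genes edgeR called in any of the 8 comparisons. The 6 other small heat shock proteins shared their direction in several comparisons. All 6 were lower in MetOP saline than in controls (median log2 fold change -0.99), including Hspb6 (354 CPM ± 223 against 792 CPM ± 405) and the lens and muscle chaperone Cryab (459 CPM ± 302 against 1077 CPM ± 578). All 6 were higher with semaglutide than with saline (median 0.86), as with Hspb8, the partner of Bag3 (0.88 ± 0.56), and Hspb2 (0.71 ± 0.55). None of these reached an unadjusted p under 0.05, and against PYY all 6 were also higher with semaglutide (median 0.95), led by Hspb3 (1.30 ± 0.70). Here and in the lists below, contrasts that share the MetOP saline libraries are not independent of each other. For comparison with the counts of direction, 52.5% of all genes tested were higher in MetOP saline than in controls. Against saline, 47.6% were higher with semaglutide and 49.5% with PYY, and 46.7% were higher with semaglutide than with PYY.

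The list of other HSP90 family genes and co-chaperones held the most genes under an unadjusted p of 0.05 between semaglutide and PYY. These were 8 of 14, all higher with semaglutide, against 6.93% of all genes tested. Sugt1 was at 31.1 CPM ± 2.98 against 18.1 CPM ± 3.36 (log2 fold change 0.78 ± 0.24) and Ahsa1, which stimulates the ATPase of HSP90, at 49.1 CPM ± 2.54 against 30.3 CPM ± 10.6 (0.69 ± 0.24). Against saline, semaglutide gave 2 of 14, the kinase adaptor Cdc37 (0.47 ± 0.22) and the immunophilin Fkbp4 (0.66 ± 0.31), beside 4.18% of all genes tested that were higher, and 11.4% in either direction, at that p. With PYY 12 of the 14 averaged lower than with saline, among them Tomm34 (-0.63 ± 0.23) and the HSP70-HSP90 adaptor Stip1 (-0.49 ± 0.25).

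Of 16 other J-domain genes, 13 averaged higher with semaglutide than with saline (median log2 fold change 0.35), with Dnajb4 (0.90 ± 0.37) and Dnajb5 (1.24 ± 0.56) among the 3 at an unadjusted p under 0.05, where 4.18% of all genes tested were higher and 11.4% passed in either direction. Against PYY 13 were higher with semaglutide, led by Dnajb6 (0.84 ± 0.26) and Dnaja3 (0.98 ± 0.32). In MetOP saline against controls, Dnaja1, an HSP70 partner in the cytosol, was at 67.8 CPM ± 9.17 against 45.9 CPM ± 6.86 (0.56 ± 0.24) and Dnajc5 at 26.5 CPM ± 3.505 against 19.9 CPM ± 3.48 (0.41 ± 0.20). Over the list, 10 of the 16 averaged lower in MetOP saline than in controls (median -0.15), among them Dnajb2 (-0.43 ± 0.21) and Dnaja2 (-0.45 ± 0.27), which were chosen after their values were seen, and 2 of 16 against 6.55% of all genes tested had an unadjusted p under 0.05. The endoplasmic reticulum gene Dnajc10 had the lowest unadjusted p of the J-domain list with PYY (0.62 ± 0.21, unadjusted p = 0.00778, adjusted p = 0.853 in edgeR).

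Among 12 tested genes of the BAG family, nucleotide exchange factors and the Bag6 complex, 11 averaged higher with semaglutide than with saline (median 0.42), and none had an unadjusted p under 0.05. Sgta, which hands membrane proteins to the Bag6 complex, was at 17.2 CPM ± 2.82 in MetOP saline against 25.5 CPM ± 1.49 in controls (-0.56 ± 0.22) and at 23.2 CPM ± 2.57 with semaglutide (0.43 ± 0.21 against saline). Against PYY, with 13.9 CPM ± 2.44, Sgta was higher with semaglutide (0.74 ± 0.23, unadjusted p = 0.0035, adjusted p = 0.141 in edgeR), as was Bag1 (0.62 ± 0.24), and 4 of the 12 genes were higher with an unadjusted p under 0.05, against 6.93% of all genes tested. With PYY the lowest unadjusted p of the list was that of Get3, which delivers tail-anchored proteins (-0.56 ± 0.26).

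Of the other HSP70 and HSP110 genes, 9 of 10 averaged higher with PYY than with saline (median 0.32), unlike Hspa8 and Hsph1, led by the endoplasmic reticulum chaperone Hyou1 (0.60 ± 0.28) and Hspa13 (0.57 ± 0.37). With semaglutide 7 of 10 averaged higher than with saline, with Hspa9, the mitochondrial HSP70, at 0.64 ± 0.39 and Hspa14 at -0.59 ± 0.31. Of the 10 chaperonin genes, which encode the folding chambers of mitochondria and cytosol, all averaged lower in MetOP saline than in controls (median -0.19) and lower with PYY than with saline (-0.19), and 8 averaged higher with semaglutide (0.20). Hspd1 was at 120 CPM ± 17.6 with semaglutide against 87.1 CPM ± 10.1 with saline (0.47 ± 0.28) and 71.8 CPM ± 39.6 with PYY (0.74 ± 0.30, unadjusted p = 0.0218).

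Of the 4 tested heat shock factors and regulators, all averaged higher with semaglutide than with saline and than with PYY (medians 0.44 and 0.63). Hsf1, the main factor of the heat shock response, was at 16.2 CPM ± 3.37 with semaglutide, 12.5 CPM ± 0.914 with saline and 9.27 CPM ± 2.91 with PYY. Its log2 fold change between semaglutide and PYY was 0.80 ± 0.27 (unadjusted p = 0.0072, adjusted p = 0.176 in edgeR). Immediate early genes, which respond quickly to stress and growth signals, were mixed: 6 of 10 were higher in MetOP saline than in controls, led by Junb (1.16 ± 0.36), and 7 of 10 averaged higher with semaglutide than with saline, where Junb was lower (-0.77 ± 0.33). The part of muscle RNA in the values of these lists was not tested.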

How the data were processed

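Bulk RNA of 23 femur libraries in 5 groups was analysed. The authors deposited raw counts for each Ensembl gene, with symbols, coordinates and lengths. They also deposited FPKM, whose values imply a depth per library proportional to DESeq2 size factors. Build mRatBN7.2 and DESeq2 1.42.0 are named in the submitters' processing notes. The aligner, counter and strand setting were not given in the sources used here. All libraries carry the same batch label, and groups share no replicate numbers.

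The 10 members and all gene lists were chosen with earlier results of these data known. Counts were tested in R 4.3.3 with edgeR 4.0.16 (TMM, filterByExpr by group, robust quasi-likelihood fit, 1 mean per group, 18 residual degrees of freedom), and p-values were adjusted by Benjamini-Hochberg over 15271 genes with a threshold of 0.05. Levels are CPM scaled by TMM factors, as mean ± SD. Fold changes are log2 ± SE. Log2 CPM used a prior count of 2. Correlations used 100000 permutations within groups. Alternatives were DESeq2 1.42.0, limma voom (limma 3.58.1), RLE factors, no filter, no mitochondrial genes, the muscle level as a covariate, only the groups compared, Hspa1a and Hspa1b summed, and each library left out. The text names all members, the 2 genes of lowest unadjusted p of a list in a comparison, and for Hspa1b, Hspa8, Hspb1 and Bag6 the 5 genes most like them. St13 and Dusp1 of the lists were not matched. Totals of 19.25 to 40.65 M counts, of which 4.28 to 16.1 M were not mitochondrial, set the precision, and intervals cover 95%.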

Additional observations from a re-analysis of the deposited data

Results flagged for a closer look

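Among the 50 sets of values (10 members in 5 groups), 4 held a library far from the others of its group by Dixon's 95% criterion, which chance gives in about 1 of 20 groups. In the semaglutide group A242 held 1.81 CPM of Hspa1a, where the nearest library had 0.308 CPM, and 192.9 CPM of Hsp90aa1, where the nearest had 116.2 CPM. In the combination A253 held 259.1 CPM of Hsp90aa1, where the nearest had 114.6 CPM, and 31.7 CPM of Dnajb1, where the nearest had 11.8 CPM.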

How the results depend on the processing

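No paired analysis was possible because the groups share no replicate numbers. The 47 reported log2 fold changes of members kept their direction in 1502 of 1504 refits. Of these refits 1081 left out 1 library, in many cases from a group outside the comparison. Such a refit could change the direction only by way of filter, scaling and shared spread. The 47 also leave out values near 0, such as 0.07 for Hsp90aa1 in semaglutide versus MetOP saline. Genes called by DESeq2 were 47 in MetOP saline versus healthy control, 89 in semaglutide, 3 in PYY and 2 in the combination versus MetOP saline, 487 in semaglutide versus PYY, 12 in combination versus semaglutide, 10 in combination versus PYY and 3 in the interaction, against 0 in edgeR except for 1 in semaglutide versus PYY. Members called by DESeq2 were 1 in semaglutide versus MetOP saline and 1 in semaglutide versus PYY, both Bag6, and the cause was not tested. With limma voom, combination versus PYY gave 1 gene.

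With each library left out in turn, genes called ranged from 1 to 1021 in semaglutide versus PYY (1021 without A220), from 0 to 1 in PYY versus MetOP saline, from 0 to 2 in combination versus PYY and from 0 to 3 in combination versus semaglutide. Members called in semaglutide versus PYY ranged from 0 to 3. The log2 fold change of Bag6 in PYY versus MetOP saline ranged from -0.10 (without A220) to 0.21, and that of Hspa1b in MetOP saline versus healthy control from -1.01 to 0.0025 (without A390). The members' median in the interaction, -0.14 as fitted, ranged from -0.41 to 0.34.

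Of the muscle correlations, 2 members passed as fitted, 0 without the 2 libraries farthest from the median and 4 without mitochondrial genes. Without those 2 libraries r was -0.066 for Hspa1a, -0.047 for Hspa1b and -0.34 for Hsph1, each with the sign reversed. Groups of 4 and 5, with a common biological coefficient of variation of 69.9%, limit which differences could pass.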
